A study of Mus musculus with 9 samples.

Results

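The comparison described here sets operated mouse knee joints that received a lentivirus expressing PC2 against operated joints that received the control lentivirus expressing Luc (luciferase). It takes all libraries labelled PC2 and all labelled Luc, 6 of the 9 libraries in the study, with 3 in each group. The mice were male C57BL/6. In both groups the anterior cruciate ligament was cut (ACLT) at 8 weeks of age, the virus went into the articular cavity 1 week after the operation, and whole joints were taken 8 weeks after the virus. The groups therefore share the operation, the injection and the lentivirus, and differ in the gene the virus carried. The other 3 libraries came from joints without surgery (Non surgery), of unknown age. RNA of each group was mixed into 1 pool, and the 3 libraries of a group are technical repeats of that pool. P-values therefore measure technical spread alone, and a difference between pools can also hold differences between mice. The number of mice in a pool, the promoter that drove the transgene and the species of the PC2 sequence are not stated in the labels.

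Polycomb genes are among the groups described below. The Polycomb repressive complexes PRC1 and PRC2 place and bind repressive marks on histones and keep genes, the Hox genes among them, silent. The study's title ties PC2 to the upkeep of the nucleolus, to senescence and to osteoarthritis, a disease in which articular cartilage is lost while bone, synovium and fat pad of the joint are remodelled and inflamed.

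The 6 libraries held between 17835989 and 19004316 counts. Levels are CPM, gene counts scaled to a common library size, and each fold or log2 value is PC2 against Luc. Rose and fell are written of genes with an adjusted p under 0.05 (edgeR's quasi-likelihood test, Benjamini-Hochberg adjustment over all 17478 genes tested), and changed at least 2-fold of those that also passed that fold. By this rule 2806 genes rose (16.1%) and 3252 fell (18.6%), so 34.7% of all genes tested passed in either direction. At least 2-fold, 228 genes were higher (1.3%) and 350 lower (2%). The 3 libraries of a group did not overlap with the 3 of the other in 8394 genes (48%). Most passing differences were small: 78.4% of them were under 1.5-fold. The median log2 difference of all genes was 0.008, with quartiles of -0.17 and 0.18.

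**Figure D1:**
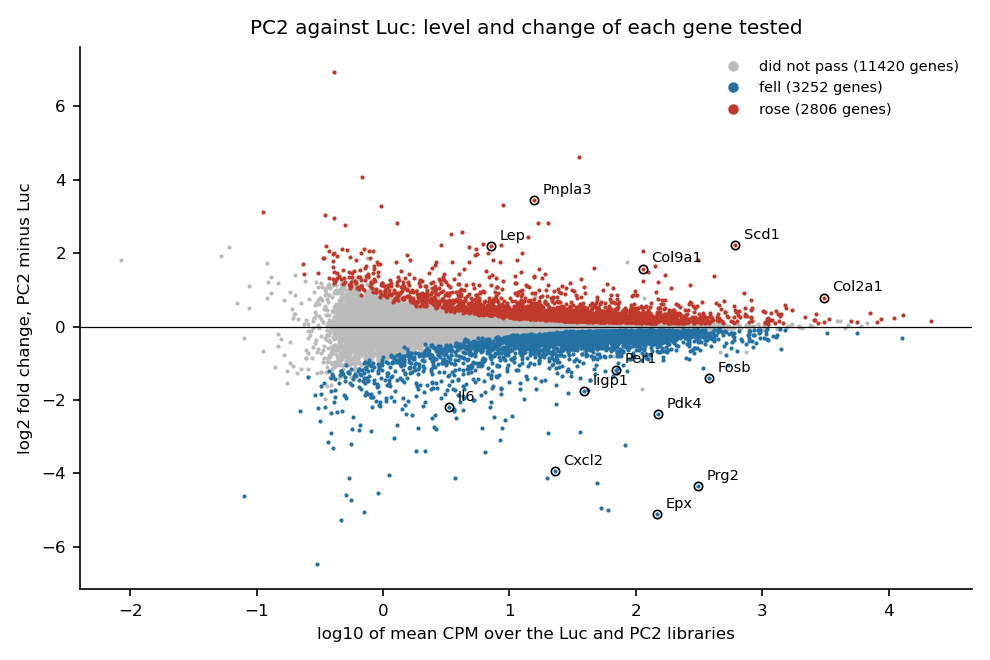
Each point is 1 of the 17478 genes tested, with its mean level over the Luc and PC2 libraries (CPM, log axis) on the x axis and its log2 difference PC2 minus Luc on the y axis. Genes with an adjusted p under 0.05 are coloured, 2806 that rose and 3252 that fell, whatever the size of the fold. Epx lies at -5.11 and Pnpla3 at 3.44.

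A trend over gene length and base composition ran through the comparison and touches every group below. Protein-coding genes whose longest annotated transcript was under 1000 bases had a median log2 of 0.20 (590 genes), and those of 8000 bases or more a median of -0.17 (847 genes). Of the short genes 37.5% rose and 5.42% fell. Of the long genes 9.8% rose and 51.5% fell. By GC content, genes under 40% had a median of -0.16 and genes at 60% or more one of 0.16. An offset for length and GC content in the same fit, chosen after the trend was seen, left 573 genes changed at least 2-fold, 210 higher and 363 lower. Where this offset moves the account of a group, its values stand beside it. The cause of the trend was not tested.

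**Figure D2:**
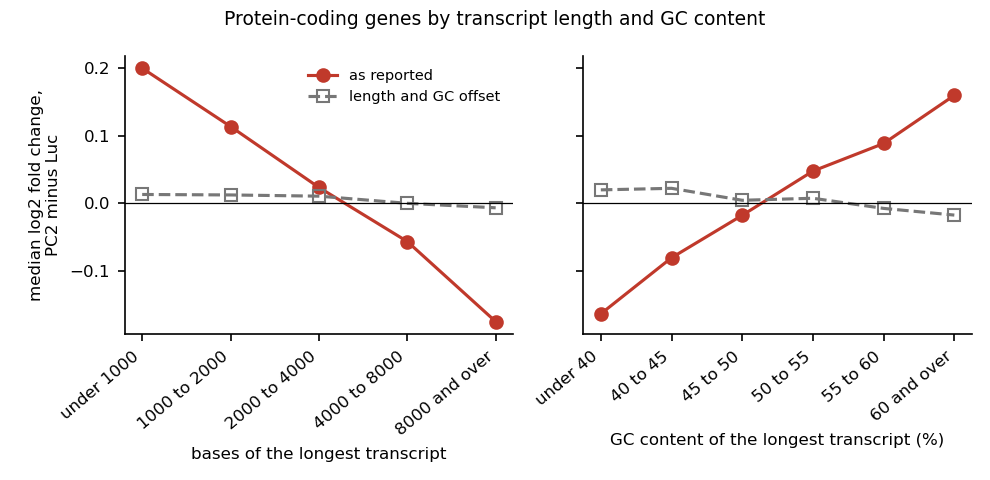
Protein-coding genes in bins of transcript length (bases) and of GC content (percent), with the median log2 difference PC2 minus Luc per bin as analysed and after the offset for both. As analysed, the medians run from 0.20 in the shortest to -0.17 in the longest bin; after the offset they lie between -0.02 and 0.02.

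Transcripts of the Polycomb complexes moved in both directions, and none changed at least 2-fold. Of 20 tested PRC1 genes 2 rose and 3 fell, and of 11 PRC2 genes 1 rose and 3 fell, beside the 34.7% of all genes that passed. The widest difference was in Phc3, a Polyhomeotic-type PRC1 subunit, with 79.5, 80.8 and 81.3 CPM in Luc and 56.1, 50.5 and 52.6 CPM in PC2. Its PC2 libraries were all lower, and it fell by 0.60 on the log2 scale. Ring1, one of the ubiquitin ligases of PRC1, rose by 0.32, and Mtf2, a PRC2 accessory protein, fell by 0.39. The catalytic PRC2 gene Ezh2 (-0.07) and the PRC1 genes Bmi1 (-0.09) and Cbx7 (0.10) did not pass. Of 29 Hox genes tested 7 rose and 0 fell, with a median of 0.24; with the length and GC offset 5 rose and 1 fell. Hoxb6 had 1.92, 1.06 and 1.56 CPM in Luc and 3.2, 2.28 and 2.88 CPM in PC2, a rise of 0.87, and Hoxc6 rose by 0.39. Pitx1, the hindlimb selector gene, rose by 0.54, from 14.03, 11.9 and 14.9 CPM to 18.3, 20.7 and 20.4 CPM.

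Genes of the cartilage matrix were higher with the PC2 virus. Of 23 tested, 20 rose, 7 at least 2-fold, 0 fell, and the median was 0.73 against 0.008 for all genes; with the offset 22 rose and 0 fell. Their summed level lay between 7588 and 7690 CPM in the Luc libraries and between 12190 and 12350 CPM in the PC2 libraries. Type IX collagen, which coats the type II fibrils, rose in all of its 3 chains. Col9a1 had 57.6, 55.5 and 58.95 CPM in Luc and 173, 169.8 and 171 CPM in PC2, Col9a2 86.8, 89.6 and 95.8 against 199, 214 and 216 CPM, and Col9a3 64.9, 68.6 and 62.1 against 185, 185 and 179 CPM. The groups did not overlap in any of the 3, and the log2 differences were 1.58, 1.21 and 1.49. Col2a1, the type II fibril chain itself (chromosome 15, 97975602 to 98004695), had 2231, 2277 and 2308 CPM against 3886, 3939 and 3918 CPM and rose by 0.78 ± 0.039 (SE, log2; adjusted p = 2.96e-10). The Non surgery libraries, in the same fit, had a mean of 220.1 CPM for Col2a1 and 3.39 CPM for Col9a1.

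The other cartilage genes split by size. Cytl1, a secreted protein of chondrocytes, had 139.7, 140.4 and 132 CPM in Luc and 479.6, 487 and 482 CPM in PC2, a 3.52-fold rise and the largest of the list. Ucma (1.36), Matn1 (1.13) and Matn3 (1.05), secreted or filament-forming cartilage proteins, also rose at least 2-fold, from levels of at most 18.3 CPM in Luc. Acan, the core protein of the main proteoglycan, had 395, 395 and 405 CPM against 542, 554 and 556 CPM and rose 1.38-fold without overlap. Comp (0.44), Hapln1 (0.49) and Col11a2 (0.92), which bind or build the fibril and proteoglycan network, rose as well. Of the transcription factors that drive these genes, Sox9 had 47.2, 44.6 and 43.7 CPM in Luc and 51.3, 52.5 and 50.9 CPM in PC2. Its rise of 0.19 (adjusted p = 0.0108) was lost without Luc replicate 3 (0.17, adjusted p = 0.0535). Sox5 (0.11) and Sox6 (-0.06) overlapped between the groups and did not pass, although Sox5 reached an adjusted p of 0.0135 with the offset (log2 0.27), and Sox6 turned to a rise with it (log2 0.11, adjusted p = 0.0202). Whether the pool held more cartilage or more RNA per cartilage cell cannot be told apart in bulk tissue, here and in every list below.

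**Figure D3:**
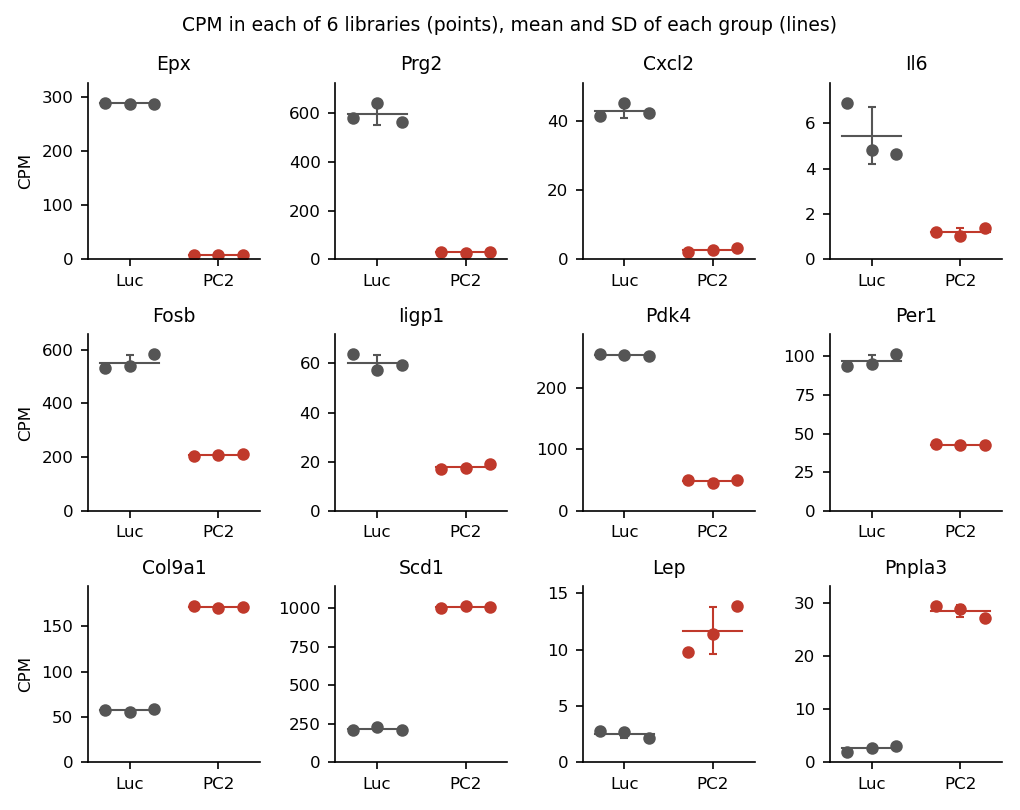
CPM of 12 genes in each of the 3 Luc and 3 PC2 libraries (linear axes from 0; points are libraries, lines the mean and SD of a group). Col9a1, Scd1, Lep and Pnpla3 are higher in each PC2 library than in each Luc library, and the 8 genes from Epx to Per1 are lower.

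Genes of hypertrophic cartilage and bone moved in both directions. In the list of osteoblasts and osteocytes 8 of 15 tested rose and 5 fell. Sost, the Wnt inhibitor of osteocytes, had 30.3, 31.1 and 31.6 CPM in Luc and 15.2, 17.96 and 17.1 CPM in PC2, with no overlap, and fell by 0.88 ± 0.074 (SE, log2; adjusted p = 1.36e-07). Mepe (-0.80), Dmp1 (-0.73) and Phex (-0.49), which govern mineral and phosphate in the osteocyte's matrix, fell too. Genes of bone formation went the other way: Col1a1, the type I collagen chain, had 11140, 11510 and 11720 CPM against 14210, 14420 and 14280 CPM (log2 0.32), Bglap (osteocalcin) rose by 0.49, Sp7 (osterix) by 0.34 and Smpd3 by 0.64. In the hypertrophic list 6 of 11 rose and 1 fell (6 and 2 with the offset). Ihh, the signal of prehypertrophic chondrocytes, had 7.74, 6.4 and 6.3 CPM against 11.5, 10.6 and 9.44 CPM (log2 0.63), and Col10a1 rose by 0.27. The fall as analysed was in Spp1 (osteopontin), with 1755, 1736 and 1636 CPM against 1137, 1107 and 1099 CPM (log2 -0.62). Of 15 osteoclast genes 0 rose and 7 fell, but 3 fell without Luc replicate 1 or PC2 replicate 3, 4 without Luc replicate 3, and 4 by DESeq2. Ctsk, the collagen-cleaving cathepsin, fell by 0.31 and Nfatc1, the osteoclast transcription factor, (-0.22), while Acp5 (0.01) overlapped. With the offset Acp5 fell (log2 -0.12, adjusted p = 0.0034).

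Matrix-degrading enzymes were lower. Of 15 metalloproteinases tested 2 rose and 9 fell, with a median of -0.33. Mmp12, the macrophage elastase, had 10.4, 9.57 and 9.75 CPM in Luc and 3.35, 3.04 and 2.2 CPM in PC2 and fell 3.45-fold. Mmp13, the collagenase that cuts type II collagen, had 1219, 1193 and 1205 CPM against 968, 944 and 957 CPM. Its groups did not overlap, and it fell 1.26-fold (log2 -0.33 ± 0.026, SE; adjusted p = 5.12e-08). Mmp3 fell by 0.37, Mmp14 (-0.43) and Mmp2 (-0.40), and Mmp15 rose by 0.41. Of 21 ADAMTS proteases and TIMPs 3 rose and 12 fell. Adamts1 had 98.1, 97.01 and 92.6 CPM against 47.9, 46.9 and 49.5 CPM (log2 -0.995), and Adamts4, an aggrecanase, 22.5, 22.9 and 22.4 against 15.3, 14.2 and 14.9 CPM (log2 -0.61). Adamts16 (-0.87) and Adamts6 (-0.76) fell as well. The aggrecanase Adamts5 went the other way, with 67.7, 72.7 and 72.6 CPM against 79.2, 74.9 and 80.2 CPM. Its rise of 0.14 (adjusted p = 0.0326) was lost without Luc replicate 1 (adjusted p = 0.126), PC2 replicate 1 (0.0953) or PC2 replicate 3 (0.11). Their inhibitors differed little: Timp1 (-0.18), Timp2 (-0.22) and Timp3 (-0.20) fell, and Timp4 rose by 0.50.

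Connective tissue matrix did not move as 1 group. Of 14 collagens of connective tissue 5 rose and 8 fell (3 rose without PC2 replicate 1 or 3 or without Luc replicate 1), with Col12a1 (-0.65), Col5a3 (-0.53) and Col6a3 (-0.46) lower while Col1a1 was higher. Fbn2 (-1.004) and Fbn1 (-0.67), the fibrillins of microfibrils, fell, and 8 of 16 elastic fibre genes fell against 2 that rose (Fbln1 0.42, Efemp1 0.36). With the offset 11 elastic fibre genes fell and 2 rose. Aspn, a small proteoglycan that binds TGF-beta, had 352, 345 and 327 CPM against 212, 169.8 and 169.7 CPM and fell by 0.89. Fmod (0.37) and Prelp (0.30), proteoglycans of the same family, rose. Of 14 matricellular genes 4 rose (2 without PC2 replicate 1) and 9 fell. Tnc (tenascin-C) fell by 0.48 and Thbs2 (-0.49), while Tnxb (tenascin-X) rose by 0.61 and Sparc, with 6160, 6096 and 6187 CPM against 8043, 8062 and 7907 CPM, by 0.38. Serpinh1, the collagen chaperone of the endoplasmic reticulum, rose by 0.57. Prg4 (lubricin), made by the synovial lining and superficial cartilage, had 5308, 5391 and 5458 CPM against 5964, 5953 and 5845 CPM and rose 1.1-fold. The synovial fibroblast list, Prg4 included, had 6 of 15 tested genes up and 5 down, with a median of 0.03. With the offset or by DESeq2 3 of them fell. Among its other genes Clic5 rose by 0.94, Dpt by 0.34 and Has2, a hyaluronan synthase, by 0.40, and Cthrc1 fell by 0.48.

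Immediate-early genes, transcription factors and regulators that respond to stimulation within minutes, were lower. Of the 24 tested, 20 fell and 2 rose (0 with the offset), with a median of -0.60. Fosb had 530.5, 539.9 and 584 CPM in Luc and 204, 208 and 211 CPM in PC2, and fell 2.66-fold. Fos had 705, 725 and 723 CPM against 342, 356 and 342 CPM and Egr1 459, 456 and 476 against 218, 213 and 211 CPM. No PC2 library reached the lowest Luc library in these 3 genes, and the log2 differences of Fos and Egr1 were -1.05 and -1.12. Atf3, a stress-induced factor, had 63.2, 64.3 and 64.2 CPM against 27.1, 21.2 and 21.2 CPM and fell 2.76-fold, and Nr4a2 fell by 1.08. The Non surgery means of Fos, Egr1 and Fosb were 18.9, 16.4 and 2.17 CPM. Feedback regulators of NF-kB and MAP kinase signalling followed the same direction, with 10 of 16 down and 0 up (13 and 0 with the offset). Nfkbiz had 96.5, 91.8 and 95 CPM against 38.8, 34.96 and 37.7 CPM (log2 -1.35). The log2 differences were -1.22 for Dusp5, -0.85 for Socs3, -0.73 for Dusp1 and -0.66 for Tnfaip3 (A20). Heat shock genes were not lower as a group (5 rose and 2 fell of 15): the small heat shock protein gene Cryab rose by 0.61, and Hspa1b (-0.0017) and Dnajb1 (-0.09) did not pass, although Dnajb1 fell with the offset (log2 -0.13).

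Among chemokine and cytokine genes more fell than rose, and many did not pass. Of 16 CXC chemokine and receptor genes 8 fell, 1 rose and 7 did not pass. Cxcl2, which attracts neutrophils, had 41.3, 45.2 and 42.2 CPM in Luc and 2.25, 2.74 and 3.36 CPM in PC2 and fell 15.4-fold, and its relative Cxcl1 had 17.3, 17.4 and 19.2 CPM against 5.76, 4.82 and 7.87 CPM and fell 2.92-fold. The T cell attractants Cxcl9 and Cxcl10, induced by interferon, had 29.6, 26.6 and 27.1 against 9.95, 9.59 and 10.9 CPM and 9.41, 9.04 and 9.54 against 3.3, 3.65 and 3.04 CPM. No group overlapped in these 4 genes. Cxcl14, a constitutive chemokine of connective tissue, rose by 0.30, and Cxcr2, the receptor of Cxcl1 and Cxcl2, fell by 0.37. Of 18 CC chemokine and receptor genes 12 fell and 4 rose (median -0.51). The monocyte attractants Ccl8 (-1.68), Ccl12 (-1.45), Ccl7 (-1.03) and Ccl2 (-0.91) fell. Ccl3 had 3.33, 3.6 and 2.32 CPM in Luc and 5.55, 4.87 and 4.83 CPM in PC2 and rose by 0.72, and Ccl4 rose by 0.99.

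Of 13 genes of the IL-6 family 6 fell, 2 rose and 5 did not pass, and of 18 genes of the IL-1 family 10 fell, 1 rose and 7 did not pass. Il6 had 6.91, 4.81 and 4.63 CPM in Luc and 1.21, 1.01 and 1.36 CPM in PC2, with no overlap, and fell 4.55-fold (adjusted p = 1.11e-06). Osm (oncostatin M) of the same family fell by 1.10, while Il11ra1 rose by 0.38 and Stat3, the factor that carries the family's signal, stood at -0.04 and did not pass. Il1b had 65.4, 63.2 and 68.8 CPM against 31.02, 31.9 and 32.4 CPM and fell 2.07-fold, as did the decoy receptor Il1r2 (1.6-fold) and the inflammasome gene Nlrp3 (1.35-fold). Il1r1, the signalling receptor, rose 1.15-fold. Ptgs2 (COX-2), the inducible enzyme of prostaglandin synthesis, had 38.4, 38.96 and 35.6 CPM against 9.85, 7.51 and 8.76 CPM and fell 4.33-fold. The other prostaglandin and leukotriene genes were mixed (4 rose and 5 fell of 19), and Ptgs1 (0.09) and Ptges (0.02) did not pass.

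Interferon-stimulated genes were lower across the group. Interferons act through receptors that activate STAT2, which with IRF9 takes part in binding the interferon-stimulated response element (ISRE) at promoters. Of 29 tested 24 fell and 1 rose, with a median of -0.44. Ifit1 had 13.8, 13.7 and 15.8 CPM in Luc and 7.39, 6.85 and 7.82 CPM in PC2, Oasl2 55.1, 52.97 and 59.5 against 29.7, 33.4 and 32.9 CPM and Zbp1 15.6, 16.1 and 14.98 against 7.33, 6.7 and 6.56 CPM. All 3 were lower in each PC2 library than in each Luc library, with log2 differences of -0.97, -0.80 and -1.18. Stat2 (-0.36) and Irf9 (-0.25) of the transducing complex fell too. Isg15 (29.7, 31.9 and 26.7 CPM against 26.4, 28.6 and 29.9 CPM) overlapped and did not pass, although it fell with the offset (log2 -0.25, adjusted p = 0.0115), and Usp18 (-0.16) and Mx2 (-0.17) did not pass. The rise was in Ifi27l2a, with 16.9, 19.1 and 19.9 CPM against 39.9, 43.4 and 43.1 CPM (log2 1.18).

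The guanylate-binding proteins (GBP) and immunity-related GTPases (IRG), which attack vacuoles of intracellular microbes, moved together. This group was put together after its values were seen. Of 16 tested 15 fell and 0 rose, 7 at least 2-fold, with a median of -0.93. Their summed level was 461, 457 and 449 CPM in the Luc libraries and 229.8, 230.2 and 230 CPM in the PC2 libraries. In the Non surgery libraries the sum was 226, 203 and 222 CPM. Iigp1 had 63.8, 57.4 and 59.3 CPM in Luc and 17.2, 17.5 and 18.9 CPM in PC2 and fell 3.36-fold (log2 -1.75 ± 0.066, SE; adjusted p = 1.22e-11). Gbp3 had 27.8, 29.3 and 30.6 CPM against 14.6, 14.1 and 13.5 CPM, Gbp7 40.1, 39.8 and 40.4 against 18.8, 17.7 and 15.5 CPM and Irgm2 65.5, 62.8 and 62.8 against 34.6, 36.1 and 32.6 CPM. Near-identical relatives such as Tgtp1 and Tgtp2 can share reads, so their separate values are uncertain. Class II MHC genes, another interferon-gamma target and a mark of antigen-presenting cells, were lower too (7 of 11 fell, 0 rose): H2-Eb1 had 156, 149 and 149 CPM against 89.1, 87.5 and 92.8 CPM (log2 -0.76), and Ciita, their transcriptional switch, fell by 0.50.

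Promoter sequence of these genes is shown because the group moved together. In the 250 bases before the RefSeq start site (GRCm38.p6), the core of the ISRE, searched as GAAANNGAA on both strands with overlapping matches kept, was present in 11 of 21 interferon-stimulated genes that had a window (52.4%), against 8.18% of all 27018 genes with one. Of the 11 genes with a match 9 fell, and of the 10 without a match 10 fell. A match is a description and not a shown binding site. The windows below are those of Ifit1 (chr19:34640639-34640888, plus strand), Isg15 (chr4:156200819-156201068, minus strand), Gbp3 (chr3:142559794-142560043, plus strand) and Cxcl10 (chr5:92348890-92349139, minus strand), 5′ to 3′ towards the start site, with matches in capitals. Ifit1 and Isg15 have 3 matches each, and of these genes only Isg15 did not fall as analysed (it fell with the offset). In Cxcl10 the capitals mark 1 ISRE core and 1 NF-kB match (GGGNNTTCC), a motif found in 2 of 13 CXC genes with a window (15.4%) and 5.61% of all genes.
Ifit1: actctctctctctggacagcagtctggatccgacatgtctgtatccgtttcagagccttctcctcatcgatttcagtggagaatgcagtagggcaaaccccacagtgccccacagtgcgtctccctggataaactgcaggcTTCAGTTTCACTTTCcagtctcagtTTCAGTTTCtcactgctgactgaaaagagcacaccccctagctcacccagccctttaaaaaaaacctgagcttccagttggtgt
Isg15: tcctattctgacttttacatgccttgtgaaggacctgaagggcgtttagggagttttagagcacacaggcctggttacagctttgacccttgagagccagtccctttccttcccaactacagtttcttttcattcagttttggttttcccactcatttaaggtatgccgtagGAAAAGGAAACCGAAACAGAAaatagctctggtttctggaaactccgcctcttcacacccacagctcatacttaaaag
Gbp3: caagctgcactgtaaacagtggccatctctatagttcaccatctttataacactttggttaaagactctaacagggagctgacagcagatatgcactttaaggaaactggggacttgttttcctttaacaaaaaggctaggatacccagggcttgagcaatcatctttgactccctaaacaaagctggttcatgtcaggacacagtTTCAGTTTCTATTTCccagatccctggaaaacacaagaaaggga
Cxcl10: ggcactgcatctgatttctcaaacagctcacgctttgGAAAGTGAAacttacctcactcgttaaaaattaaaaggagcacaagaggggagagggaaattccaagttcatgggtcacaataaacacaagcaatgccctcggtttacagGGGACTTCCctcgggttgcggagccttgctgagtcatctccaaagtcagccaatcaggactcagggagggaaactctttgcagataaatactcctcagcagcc

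The largest differences of the comparison were in eosinophil genes. All 10 tested fell, with a median of -4.19, and their summed level was between 1357 and 1486 CPM in the Luc libraries and between 81.2 and 87.6 CPM in the PC2 libraries. Epx, the granule peroxidase, had 289, 287 and 287 CPM in Luc and 8.38, 8.02 and 8.6 CPM in PC2 and fell 34.5-fold. Prg2, the major basic protein, had 577, 642 and 562 CPM against 29.9, 26.8 and 31 CPM, and Alox15, a lipoxygenase, 96.6, 94.6 and 90.96 against 4.82, 4.72 and 5.25 CPM. Among surface receptors, Il5ra, the receptor of the eosinophil growth factor, fell 6.95-fold, Siglecf 3.09-fold and the chemokine receptor Ccr3 1.66-fold. Ear1 (-4.95), Ear2 (-3.21) and Ear6 (-5.003) fell, but these near-identical ribonuclease genes can share reads and their separate values are uncertain. The Non surgery means were 109 CPM for Epx and 236 CPM for Prg2.

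The eotaxins, chemokines that draw eosinophils, did not fall. Ccl11 had 6.71, 4.65 and 4.09 CPM in Luc and 4.4, 5.43 and 6.45 CPM in PC2 and overlapped, and Ccl24 rose by 0.88 from 1.98, 1.38 and 2.15 to 2.83, 3.35 and 3.93 CPM. Il4 (-0.26) did not pass, and Il5 and Il13 had too few counts to be tested. Receptors of IL-4 and IL-13 were lower: Il13ra2 (-1.04), Il13ra1 (-0.35) and Il4ra (-0.28) fell. Of 11 mast cell and basophil genes 6 rose and 2 fell, while their summed level was between 159 and 168 CPM in the Luc libraries and between 162 and 166 CPM in the PC2 libraries. The mast cell proteases Mcpt4, Cma1 and Tpsb2 rose by 1.13, 1.12 and 1.09 from levels of at most 2.06 CPM, and Kit fell by 0.44.

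Genes of the B lineage were lower at each stage listed. Of 15 genes of B cell precursors 12 fell and 0 rose, with a median of -0.45. Rag1, the recombinase of antigen receptor genes, had 46.9, 46.7 and 45.6 CPM in Luc and 23.7, 23.1 and 25.8 CPM in PC2, and Dntt, which adds bases at the joins, 23.4, 18.9 and 20.3 against 10.3, 10.2 and 10.3 CPM. Both groups were apart, and the log2 differences were -0.94 and -1.02. Igll1, the surrogate light chain, fell by 0.70 and Pax5, the B lineage factor, (-0.59), while Ebf1 (-0.05) did not pass and rose with the offset (log2 0.10, adjusted p = 0.0376). Of 17 genes of mature B and plasma cells 11 fell and 1 rose. Igha, the IgA heavy chain, had 657, 687 and 621 CPM against 364, 389.5 and 385 CPM, Jchain fell by 0.68 and Ighg1 (-1.44); the rise was in Ighg3, with 2.91, 3.91 and 3.34 CPM against 10.4, 9.69 and 8.65 CPM. Immunoglobulin V segments, a class chosen after its values were seen, had 90 of 158 down and 8 up, 65 at least 2-fold lower. Their summed level was 902, 866 and 976 CPM in the Luc libraries and 507, 500 and 506 CPM in the PC2 libraries.

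Other blood cell lists differed less and in both directions. Of 16 neutrophil genes 8 rose and 5 fell, but 3 rose and 7 fell with the offset and 5 rose without Luc replicate 3. Their summed level was between 14150 and 14790 CPM in the Luc libraries and between 14690 and 14940 CPM in the PC2 libraries. Camp rose by 0.46 and Prtn3 by 0.36, and Retnlg fell by 0.46. Of 19 macrophage genes 8 rose and 5 fell (6 and 6 with the offset; 5 rose without Luc replicate 1 or PC2 replicate 2). Vsig4, the complement receptor of resident macrophages, had 5.82, 4.71 and 5.33 CPM against 13.1, 11.8 and 12.8 CPM and rose by 1.25, and Cx3cr1, the fractalkine receptor, had 28.1, 33.4 and 27.3 against 13.9, 20.4 and 17.6 CPM and fell by 0.77. The erythroid and megakaryocyte lists had medians of 0.01 and -0.09. Of 17 erythroid genes 5 rose and 4 fell as analysed, and 4 rose and 7 fell with the offset. Of 15 complement genes 7 rose and 3 fell (4 and 4 with the offset): C4b had 327, 334 and 335 CPM against 516, 533 and 518 CPM and Cfd, also an adipocyte product, 119, 129 and 124 against 254, 259 and 260.1 CPM.

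**Figure D4:**
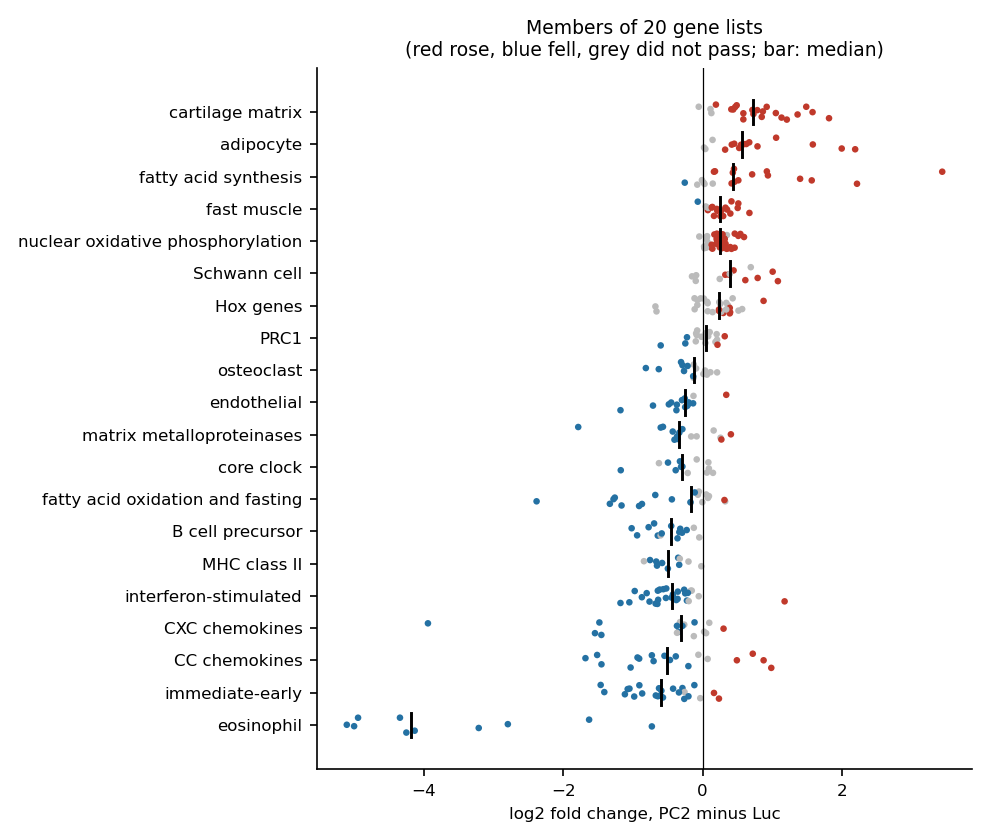
Log2 difference PC2 minus Luc of each tested member of 20 gene lists, 1 point per gene, with the median of each list as a bar; red genes rose, blue genes fell and grey genes did not pass. The eosinophil list lies furthest to the left, at a median of -4.19, and the cartilage matrix list furthest to the right, at 0.73.

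Fatty acid synthesis and fat cell genes were higher. Of 20 genes of fatty acid synthesis 14 rose and 1 fell, with a median of 0.44, and their summed level was between 1210 and 1243 CPM in the Luc libraries and between 2422 and 2439 CPM in the PC2 libraries. Scd1, the stearoyl-CoA desaturase, had 213, 226 and 212 CPM in Luc and 1001, 1016 and 1010 CPM in PC2 and rose 4.65-fold. Fasn, the fatty acid synthase, had 90.3, 95.3 and 97.1 CPM against 252, 248 and 246 CPM, and Pnpla3, a lipid droplet protein, 2.03, 2.8 and 3.07 against 29.6, 28.9 and 27.3 CPM. None of these 3 overlapped, and Fasn and Pnpla3 rose 2.64-fold and 10.8-fold. The transcription factors of the pathway rose too, Mlxipl (ChREBP) by 0.94 and Srebf1 by 0.51. Acly (0.01) and Elovl6 (0.15) did not pass (Elovl6 rose with the offset, log2 0.28), and Gpam fell by 0.26. Of 23 sterol genes 8 rose (5 without Luc replicate 3 or PC2 replicate 2) and 1 fell, near the 34.7% of all genes that passed. With the offset 6 sterol genes rose and 0 fell. Insig1 (0.50) was among the rises as analysed.

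In the adipocyte list 13 of 16 tested rose and 0 fell (median 0.57), and the summed level was between 929.8 and 1005 CPM in the Luc libraries and between 1355 and 1392 CPM in the PC2 libraries. Lep (leptin) had 2.81, 2.7 and 2.15 CPM in Luc and 9.74, 11.4 and 13.9 CPM in PC2, Retn (resistin) 2.55, 2.96 and 2.59 against 10.6, 10.6 and 11.2 CPM, and Plin1, which coats lipid droplets, 21.4, 23 and 25.2 against 66.6, 71.2 and 70.3 CPM. Each PC2 library was above each Luc library, and the rises were 4.56-fold, 3.99-fold and 2.99-fold. Adipoq (adiponectin) rose 1.59-fold, while Pparg (0.14), Lpl (0.04) and Pnpla2 (0.02) overlapped. Among other large rises, Sncg (1.81), Lgals12 (1.81) and Nnat (1.999) are also known from fat tissue. The part of the amount of fat in each pool in the lipid synthesis result was not tested.

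Genes of fasting and fatty acid oxidation were lower. Of 20 tested 11 fell and 1 rose (12 and 3 with the offset). Pdk4, which shuts pyruvate out of the mitochondrion, had 254, 254 and 252 CPM in Luc and 49.98, 45.9 and 49.7 CPM in PC2 and fell 5.22-fold; the Non surgery mean was 2253 CPM. Ucp3 had 34.98, 31.5 and 33.6 CPM against 13.99, 13.4 and 14.3 CPM and Plin5, a droplet protein of oxidative tissue, 4.42, 5.18 and 4.8 against 1.99, 1.62 and 2.1 CPM. Angptl4, the lipase inhibitor, fell by 1.16, Cpt1a, the carnitine gate to the mitochondrion, (-0.87) and Acot1 (-1.28). The enzymes of the oxidation cycle itself, Acadm (0.08), Acadvl (-0.05), Hadha (-0.07) and Hadhb (0.05), did not pass as analysed. With the offset Acadvl (log2 -0.13) and Hadha (-0.08) fell and Hadhb (0.23) rose, and Acadm rose without PC2 replicate 1 (0.12, adjusted p = 0.0354). Of 13 glucocorticoid-responsive genes 9 fell and 2 rose: Ddit4 (-0.80), Sgk1 (-0.48) and Tsc22d3 (GILZ, -0.25) fell, Cebpd rose by 0.33, and Fkbp5 (-0.09) overlapped. Of 14 genes of muscle atrophy and FoxO signalling 4 rose and 2 fell (7 and 2 with the offset; 2 rose without PC2 replicate 2 or 3), with a median of 0.07. The falls were in ubiquitin ligases of muscle wasting, Fbxo32 (atrogin-1) with 150.5, 151 and 150.1 CPM against 83.4, 92.2 and 91.01 CPM (log2 -0.76) and Trim63 (MuRF1) with 49.7, 52.1 and 50.8 against 36.7, 36.6 and 38.6 CPM (log2 -0.45).

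Clock genes showed 1 large fall. Per1 had 93.4, 94.95 and 101 CPM in Luc and 43.1, 42.3 and 42.9 CPM in PC2 and fell 2.26-fold (log2 -1.18 ± 0.048, SE; adjusted p = 2.65e-11). Per2 fell by 0.50, Nr1d2 (-0.39) and Per3 (-0.29), and of 13 core clock genes 6 fell and 0 rose. Arntl (BMAL1, 0.15), Nr1d1 (0.09), Cry1 (0.06) and Cry2 (-0.09) did not pass. Arntl rose with the offset (0.17) and without PC2 replicate 2 (0.19), Cry2 fell with the offset (-0.14), and Arntl and Nr1d1 rose where the Luc and PC2 libraries were fitted alone. Bhlhe40, a repressor driven by the clock, had 216, 224 and 216 CPM against 139.7, 142 and 143 CPM and fell by 0.63. The hour of collection is not stated in the labels. The Per1 window (chr11:69098699-69098948, plus strand, RefSeq GRCm38.p6) is shown for the E-box CACGTG that clock activators bind, in capitals. This motif was in the windows of 3 of 11 core clock genes (27.3%; Per1, Cry1 and Ciart) and of 6.86% of all genes, and of these 3 only Per1 fell as analysed. Ciart (log2 -0.63, adjusted p = 0.063) fell with the offset (adjusted p = 0.0396), without a filter (0.0376) and without Luc replicate 2 (-0.81, adjusted p = 0.0243).
Per1: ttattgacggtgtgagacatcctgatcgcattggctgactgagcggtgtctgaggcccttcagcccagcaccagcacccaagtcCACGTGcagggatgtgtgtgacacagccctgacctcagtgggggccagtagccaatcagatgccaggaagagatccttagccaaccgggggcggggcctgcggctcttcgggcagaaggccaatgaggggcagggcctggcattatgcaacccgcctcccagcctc

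Muscle genes were somewhat higher. Of 19 fast muscle genes 16 rose and 1 fell (median 0.25), and their summed level was between 33350 and 33840 CPM in the Luc libraries and between 38940 and 39030 CPM in the PC2 libraries. Myh1 had 1269, 1264 and 1299 CPM against 1811, 1819 and 1802 CPM (log2 0.50), and Casq1, the calcium store protein, rose by 0.67. Myh2, the oxidative fast myosin, had 166, 164 and 169.8 CPM against 362, 374 and 359.5 CPM and rose 2.19-fold. The slow list had 8 of 14 up and 3 down, with a median of 0.32 (7 and 4 with the offset, median 0.17). Fabp3 (-0.74) and Ankrd2 (-0.87), both of slow muscle, fell. Of 13 regeneration and neuromuscular junction genes 1 rose (Chrnb1, 0.52), and Myod1 (0.30) and Myog (0.17) did not pass, although Myod1 rose without PC2 replicate 2 (0.37, adjusted p = 0.0467).

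Genes of oxidative phosphorylation were higher, and those of mitosis lower. Of 39 nuclear genes of oxidative phosphorylation 30 rose and 0 fell, with a median of 0.25, but their median transcript is 1232 bases long, and with the offset 19 rose, 1 fell and the median was 0.13. Ndufa2 rose by 0.51 and Cox8b, a muscle form of cytochrome oxidase, by 0.59, while Atp5a1 (0.02) and Atp5b (0.02) overlapped, and Atp5b fell with the offset (log2 -0.054, adjusted p = 0.0475). Of 37 genes of ribosome biogenesis and the nucleolus 4 rose and 10 fell, against 34.7% of all genes passing. With the offset 2 rose and 7 fell, by DESeq2 or without PC2 replicate 1 or 3 6 fell, and 1 or 2 rose without any 1 Luc library or PC2 replicate 2. Fbl (-0.06), Npm1 (-0.08), Ubtf (-0.01) and Nop56 (0.0045), which make up the core of the nucleolus, did not pass (Npm1 fell with the Luc and PC2 libraries fitted alone, adjusted p = 0.0217, and without Non surgery replicate 2, 0.0387), and Mybbp1a fell by 0.18. Of 25 genes of mitosis and replication 14 fell and 3 rose. Mki67 had 953, 948 and 948 CPM against 730.1, 714 and 726 CPM (log2 -0.39), Cenpe fell by 0.37 and Mcm6 (-0.25), while Birc5 rose by 0.32. The cell cycle inhibitors Cdkn1a and Cdkn2a, markers of senescence, did not pass with all libraries: Cdkn1a (p21) had 103, 106 and 109 CPM against 108, 105 and 111 CPM, and Cdkn2a (p16 and p19) 1.4, 1.004 and 1.29 against 1.26, 0.507 and 0.629 CPM, with the groups overlapping in both. Without PC2 replicate 1, however, Cdkn2a fell (log2 -1.11, adjusted p = 0.0263) from -0.63 (adjusted p = 0.155) with all libraries. Of the 20 inhibitors and p53 targets 4 rose and 3 fell (6 and 3 with the offset), about the share of all genes that passed, 34.7%. Among them were Gdf15 (0.95) and Bbc3 (PUMA, 0.55) up and Eda2r (-0.62) and Plk2 (-0.54) down.

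Most endothelial genes were lower, while more genes of smooth muscle and pericytes and of Schwann cells rose than fell. Of 15 endothelial genes 13 fell and 1 rose (13 and 0 with the offset), with a median of -0.26. Sele (E-selectin), which endothelium shows when inflamed, had 17.4, 14.6 and 17.03 CPM in Luc and 6.5, 7.46 and 7.66 CPM in PC2 and fell 2.27-fold. Selp (-0.71), Kdr (VEGF receptor 2, -0.49) and Pecam1 (-0.37) fell as well. Of 11 smooth muscle and pericyte genes 7 rose and 1 fell: Cnn1 had 2.34, 2.22 and 1.99 CPM against 6.86, 4.57 and 6.14 CPM, Myh11 rose by 0.74 and Kcnj8 fell by 0.33. Of 13 Schwann cell genes 7 rose and 0 fell (median 0.39), and Mbp, a myelin protein gene, (-0.10) did not pass. Of 10 keratinocyte genes, markers of skin, 2 had enough counts to be tested, and Krt14 and Krt15 were at 0 in all 6 libraries, which allows a level of up to 0.168 CPM (3 counts, counting error only).

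Growth factor pathways were mixed. Of 19 TGF-beta genes 10 fell and 3 rose. Skil, a repressor of the pathway, (-0.66), Inhba (-0.44) and the receptor Tgfbr1 (-0.37) fell, while Tgfb1 (-0.11, adjusted p = 0.0585) and Tgfb3 (-0.01) did not pass. Tgfb1 fell under 6 alternatives, among them the offset (-0.16, adjusted p = 0.00159), the replicate block (0.0395) and the Luc and PC2 libraries alone (0.0109), and without Non surgery replicate 1 (0.0446) or 2 (0.00842). Of 25 BMP genes 11 rose and 2 fell (8 and 1 with the offset). They include ligands (Bmp5, 0.46; Gdf10, 0.35) and antagonists (Chrdl2, 1.03; Chrd, 0.37; Grem1, 0.35). Of 23 Wnt genes 6 rose and 5 fell. Wnt16, a ligand of the joint, had 11.9, 11 and 10.8 CPM against 5.03, 4.92 and 6.14 CPM and fell by 1.07, and among secreted inhibitors Wif1 (0.38) and Dkk2 (0.55) rose while Dkk3 (-0.54) and Sfrp2 (-0.56) fell. Of 10 IGF genes 3 rose, 1 of them at least 2-fold, 3 fell and 4 did not pass. Igf1 had 182, 173 and 179 CPM against 127, 122 and 123 CPM and fell by 0.53. Its binding proteins Igfbp6 and Igfbp5 rose by 0.52 and 0.34, and the rise of at least 2-fold was in another gene of the list.

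A few of the largest differences lay outside these lists. Eps8l1, an actin regulator, had 1.25, 1.16 and 1.19 CPM in Luc and 6.44, 7.61 and 7.61 CPM in PC2, and Tmem45b 4.47, 4.55 and 4.09 against 24.8, 22.4 and 23.5 CPM. Zfp871, a zinc finger gene, had 33.9, 36 and 36.6 CPM against 4.4, 4.92 and 4.98 CPM, Slc15a2, a peptide transporter, 10.7, 10.2 and 10.7 against 1.78, 1.27 and 1.57 CPM, and Lcor, a nuclear receptor corepressor, 12.4, 10.4 and 11.5 against 2.15, 2.54 and 2.78 CPM. In all 5 the groups were apart, with log2 differences of 2.58, 2.43, -2.89, -2.77 and -2.20.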

How the data were processed

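RNA of whole knee joints was sequenced in 9 libraries, 3 technical repeats of 1 RNA pool for each of 3 groups, per the labels' protocols. TRIzol extraction and the NEBNext Ultra RNA library kit were used, again per the labels. The authors deposited, for each library, a table of raw read counts of Ensembl genes. The submitters' processing notes name HISAT2, HTSeq, DESeq2 and mm10 and no versions. Annotation release and strand setting are not given in the sources used here. Lines in which HTSeq sums up unassigned reads, 5 per table, were left out of totals and tests. Reads outside genes made up 9.08% ± 0.18 of a Luc library and 8.11% ± 0.061 of a PC2 library (SD, n = 3), and reads not assignable to a single gene 5.81% ± 0.15 and 6.02% ± 0.075. Mitochondrial genes took 5.33% ± 0.42 and 5.72% ± 0.13 of counts. Chi-square statistics per degree of freedom between libraries of a group were 3.94 to 8.67, above counting noise, so each was counted as a library of its own.

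GENCODE M21 (GRCm38) gave symbols, coordinates, transcript length and GC content and held 53274 of 53379 IDs. All 9 libraries entered 1 edgeR 4.0.16 quasi-likelihood fit in R 4.3.3 (TMM factors, filterByExpr with minimum count 10, two-sided, Benjamini-Hochberg adjustment over 17478 genes), with PC2 minus Luc as the contrast. Standard errors are the log2 difference over the square root of F. CPM values use TMM-scaled library sizes. The fit was also run on simulated counts with known folds, drawn with the spread of these technical repeats. Those counts held no length or GC trend and no spread between mice, so they cannot test how the fit handles either. Without strand, reads of overlapping genes, such as Tnnc2 and Tagln, and of near-identical paralogs (Ear, Hba, Hbb, Serpina1, Tgtp) cannot be told apart.

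Genes named are the 15 largest rises and falls whose groups did not overlap and whose higher group had at least 5 CPM, leaving out unnamed gene models, immunoglobulin segments and pseudogenes; up to 4 members of each of 66 gene lists, with further members by role; and genes fixed by name. Not every gene this rule gives is described. The gene the virus carried and some other genes are not reported here. The members of the comparison, the lists and the rule were chosen with earlier results of these data known. Alternatives were other scalings, DESeq2 1.42.0, other filters, the 6 libraries alone, a replicate block, leaving out each library, and the length and GC offset, the last chosen after seeing the data. Promoter windows are RefSeq's, on GRCm38.p6.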

Additional observations from a re-analysis of the deposited data

How the results depend on the processing

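The 578 genes changed at least 2-fold became 289 (108 higher and 181 lower) with a minimum count of 50, which tests fewer genes of low level; no other alternative moved the count by over 1.5 times, with 494 by DESeq2, 740 without a filter and 573 with the length and GC offset. Leaving out 1 library gave 557 to 634. Genes past an adjusted p of 0.05 ranged from 4921 to 6591 over the alternatives, and the share of changed genes that were higher from 35.9% to 41.2%. A replicate block gave 577 changed genes and 6192 past the adjusted p; deviations of libraries with the same number correlated at -0.03, 0 and 0.02, so the numbers do not pair the libraries. Of the genes named, Sox6 (0.11), Acp5 (-0.12), Ebf1 (0.10) and Atp5b (-0.0544) changed sign with the length and GC offset, as log2 values; none of the 4 had passed the test, all 4 passed in the new direction with the offset, and the cause was not tested. Other calls that changed stand beside their genes. Counts of 3 or fewer members of a list that rose or fell moved by 1 or 2 genes under several alternatives. Precision rests on technical repeats alone: no value here holds the spread between mice. Genes under 1 CPM passed in 11.3% of cases and genes at 100 CPM or more in 59.8%, so a low gene that did not pass may differ below what this depth detects.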

Other observations

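Several gene models outside the lists differed widely and were chosen after their values were seen. Gm21887 (chromosome X) had 3.53, 4.28 and 4.63 CPM in the Luc libraries and 33.9, 25.7 and 28.1 CPM in the PC2 libraries, and Gm47283 (chromosome Y) had 2.55, 1.43 and 0.862 CPM against 19.02, 18.3 and 11.5 CPM. Both rose without overlap, by 2.81 (Gm21887) and 3.32 (Gm47283) on the log2 scale. F830016B08Rik (chromosome 18) had 12.2, 12.1 and 10.8 CPM against 1.21, 0.913 and 1.15 CPM and fell by 3.42. Among antibody segments Ighv7-1 fell by 2.78. Gene models of GENCODE's class TEC, transcripts awaiting experimental proof, had 76 of 357 down and 12 up, 57 of the falls at least 2-fold. Over all genes tested 18.6% fell, 16.1% rose and 2% fell at least 2-fold. The share of falls of any size in the class was near that of all genes. Its share of falls at least 2-fold was well above that of all genes, and its share of rises was below.

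A few transcripts were high in 1 PC2 library or differed widely among the PC2 libraries. The ribosomal protein pseudogene Rpl7a-ps11 had 197.7, 4.31 and 2.83 CPM in PC2 replicates 1, 2 and 3 and 2.55 to 3.02 CPM in the Luc libraries, and the pseudogene Gm12070 had 94.2, 4.77 and 6.50 CPM against 4.34 to 5.87 CPM. Both passed the test, with adjusted p values of 0.0067 and 0.0136 (edgeR's quasi-likelihood test), although the groups overlap. Without PC2 replicate 1 the adjusted p was 0.228 for Rpl7a-ps11 and 0.493 for Gm12070, and for Gm12070 it was 0.0513 without Luc replicate 3. Genes of the miRNA class summed to 356.4, 228 and 128.4 CPM in the PC2 libraries and to 93.8, 85.0 and 70.3 CPM in the Luc libraries. Each PC2 library was above each Luc library in this sum. Of 24 genes tested in this class, chosen after its values were seen, 6 rose, all at least 2-fold, and 0 fell. Over all genes tested 16.1% rose and 1.3% rose at least 2-fold. In the PC2 libraries most counts of the class fell on Gm23935, with 292.3, 174.3 and 83.9 CPM against 52.8, 46.8 and 33.5 CPM in the Luc libraries.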
